A study of Mus musculus with 60 samples.

Results

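TRBV1 and TRBV31 are the outermost variable (V) gene segments of the mouse T cell receptor beta (TRB) locus, and their use in donor T cells was read from clonotype tables of CD4+ and CD8+ cells. A clonotype is 1 row of a table, a complementarity determining region 3 (CDR3) amino acid sequence with the V, D and J segments named for it. Members were the rows whose V name was TRBV1 or TRBV31. TRBV1 had 4750 of 85775 rows in the CD4 table and 3547 of 82447 in the CD8 table. TRBV31 had 0 rows in both tables, and 29 V names had rows in at least 1 of them. The comparisons of TRBV31 and of the ratio of TRBV31 to TRBV1 could therefore not be run, and CDR3s with the germline start of TRBV31 are described at the end.

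The study asked how donor T cells that lack STAT3, a transcription factor, or both STAT3 and PD-1, an inhibitory receptor, respond in graft-versus-host disease. Donors were C57BL/6 mice, either wild type (WT), STAT3ko (Stat3 fl/fl with Cre driven by the CD4 promoter) or STAT3koPD-1ko (the same on a PD-1-/- background). T cells of each genotype were given to lethally irradiated BALB/c mice together with T cell-depleted marrow of WT C57BL/6 donors, an allogeneic hematopoietic cell transplantation (HCT) that all recipients shared. Each table held 15 libraries, namely 1 per genotype labelled as spleen before HCT and 2 per genotype from liver and from gut on day 6, each of the day 6 ones made from cells pooled from 3 recipients and sorted as H-2Kb+TCRβ+. The study's methods name 2 batches of 3 mice each, which the labels do not tie to replicate numbers, so p-values measure the spread between libraries that may differ by batch.

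A TRB chain is made when a D segment is joined to a J segment and a V segment is then joined to both. The locus carries a first cluster (TRBD1 and the TRBJ1 segments) and, beyond it, a second cluster (TRBD2 and the TRBJ2 segments), so that a TRBD1 segment can reach either group of J segments while TRBD2 lies past the TRBJ1 segments. TRBV1 is the first V segment of the locus, far upstream of the others. TRBV31 lies on the other side, downstream of the constant genes and in the opposite orientation, and it is joined by inversion of the DNA between it and the D segment rather than by deletion. The joint ends of V and J, the D bases and bases added without template form the CDR3, the loop of the chain that contacts peptide most closely.

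In the GENCODE annotation of GRCm38, Trbv1 spans chr6:40891229-40891885 on the plus strand and Trbv31 spans chr6:41557691-41558452 on the minus strand. Trbv1 lay 155 kb from the next V gene, Trbv2, and 641 kb from Trbd1, whereas Trbv30, the nearest V gene on the same side, was 251 kb from Trbd1. Trbv31 began 24.5 kb beyond the start of Trbd1, 13.8 kb beyond Trbj2-7 and 9.34 kb beyond the constant gene Trbc2. The 3′ ends of both coding sequences are printed because they form the start of the CDR3. Those of Trbv22, Trbv17 and Trbv24 follow because the tables used these names for rows described further on. All run 5′ to 3′ on the coding strand of GRCm38, with capitals from the codon of the conserved cysteine onward.
Trbv1: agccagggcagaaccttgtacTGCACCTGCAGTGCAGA
Trbv31: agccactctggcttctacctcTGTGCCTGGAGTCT
Trbv22: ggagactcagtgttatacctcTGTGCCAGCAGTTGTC
Trbv17: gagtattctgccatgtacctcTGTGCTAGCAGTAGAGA
Trbv24: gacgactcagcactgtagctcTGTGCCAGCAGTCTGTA
The 2 D segments, both wholly in capitals, are alike over most of their length.
Trbd1: GGGACAGGGGGC
Trbd2: GGGACTGGGGGGGC

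Of the 35 annotated TRB V genes, only Trbv1 held TGCACCTGC and only Trbv31 held TGTGCCTGG in the last 40 bases of its coding strand. Among germline V ends, these 9 bases were therefore particular to each segment. TGTGCC also opens the printed ends of Trbv22 and Trbv24, so D or added bases could complete TGTGCCTGG in a joint of another V gene. In the tables, 4715 CD4 rows and 3531 CD8 rows started with TGCACCTGC, and all of them were named TRBV1. These were 99.3% of CD4 and 99.5% of CD8 rows named TRBV1. Over all bases the tables gave to V, 3798 CD4 rows (79.96%) and 2531 CD8 rows (71.4%) equalled the germline end of Trbv1, which has 17 bases from the CDR3 start. A further 707 and 813 rows were given more than these 17 bases, and 245 and 203 rows differed from the germline within them.

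The libraries were not all alike. The tables list only clonotypes found in at least 2 of 18 libraries, and the listed clonotypes took 47.8% to 97.2% of the reads of a CD4 library and 53.2% to 98.4% of a CD8 library. The gut replicate 2 libraries were lowest in both tables (47.8% to 51.5% and 53.2% to 58.0%). By that rule every listed clonotype is in another library of the join, so the shares that follow are of listed clonotypes, which were selected for sharing. Of the listed TRBV1 clonotypes of a library labelled before HCT, 70.9% to 90.7% in the CD4 table and 64.3% to 90.4% in the CD8 table were also in liver replicate 1 of the same genotype. In that of another genotype the shares were 9.74% to 14.6% and 5.01% to 11.4%. With liver replicate 2 of its own genotype, the share was 10.6% to 17.96% and 7.25% to 11.4%. Gut replicate 1 held 56.7% to 65.5% and 55.3% to 83.2% of them, and gut replicate 2 held 4.77% to 10.7% and 7.25% to 10.5%. Sharing was not limited to libraries of 1 number, since gut replicate 1 held on average 55.1% and 72.8% of the TRBV1 clonotypes of liver replicate 2 of its genotype, against 14.5% and 12.3% of those of another genotype. Libraries labelled before HCT therefore shared clonotypes with the libraries numbered 1 of their genotype, and gut replicate 1 with both liver libraries, which enter the gut against liver comparison as separate. Whether each library holds the sample that its label names was not tested, so every contrast with before HCT takes those labels as given. Without the 3 gut replicate 1 libraries, the CD4 difference of TRBV1 between gut and before HCT was -0.42 on the log2 scale (limma, adjusted p = 0.0122), and without the 3 liver replicate 1 libraries that between liver and before HCT was 0.20 (adjusted p = 0.668). The files give fractions of reads and no counts, so the depth is unknown and no interval for counting error can be given.

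TRBV1 took a larger share of the listed frequency in CD4 than in CD8 libraries. Its mean usage, the sum of its clonotype frequencies as a percentage of all listed frequency, was 6.21% ± 1.55 (SD, n = 15) in the CD4 table, from 3.95% to 8.71%. In the CD8 table it was 2.68% ± 0.718 (n = 15), from 1.26% to 3.53%. The lowest CD4 library lay above the highest CD8 library, but the tables were joined separately, so the difference was not tested. Such separation was not particular to TRBV1. The CD4 and CD8 ranges of TRBV12-1, TRBV15, TRBV23, TRBV26 and TRBV29, among others, did not overlap either, while those of TRBV13-1, TRBV14 and TRBV16, for example, did. By mean usage TRBV1 ranked 5 of 28 V names in the CD4 table (3 to 9 in single libraries) and 13 of 26 in the CD8 table (11 to 16).

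**Figure D1:**
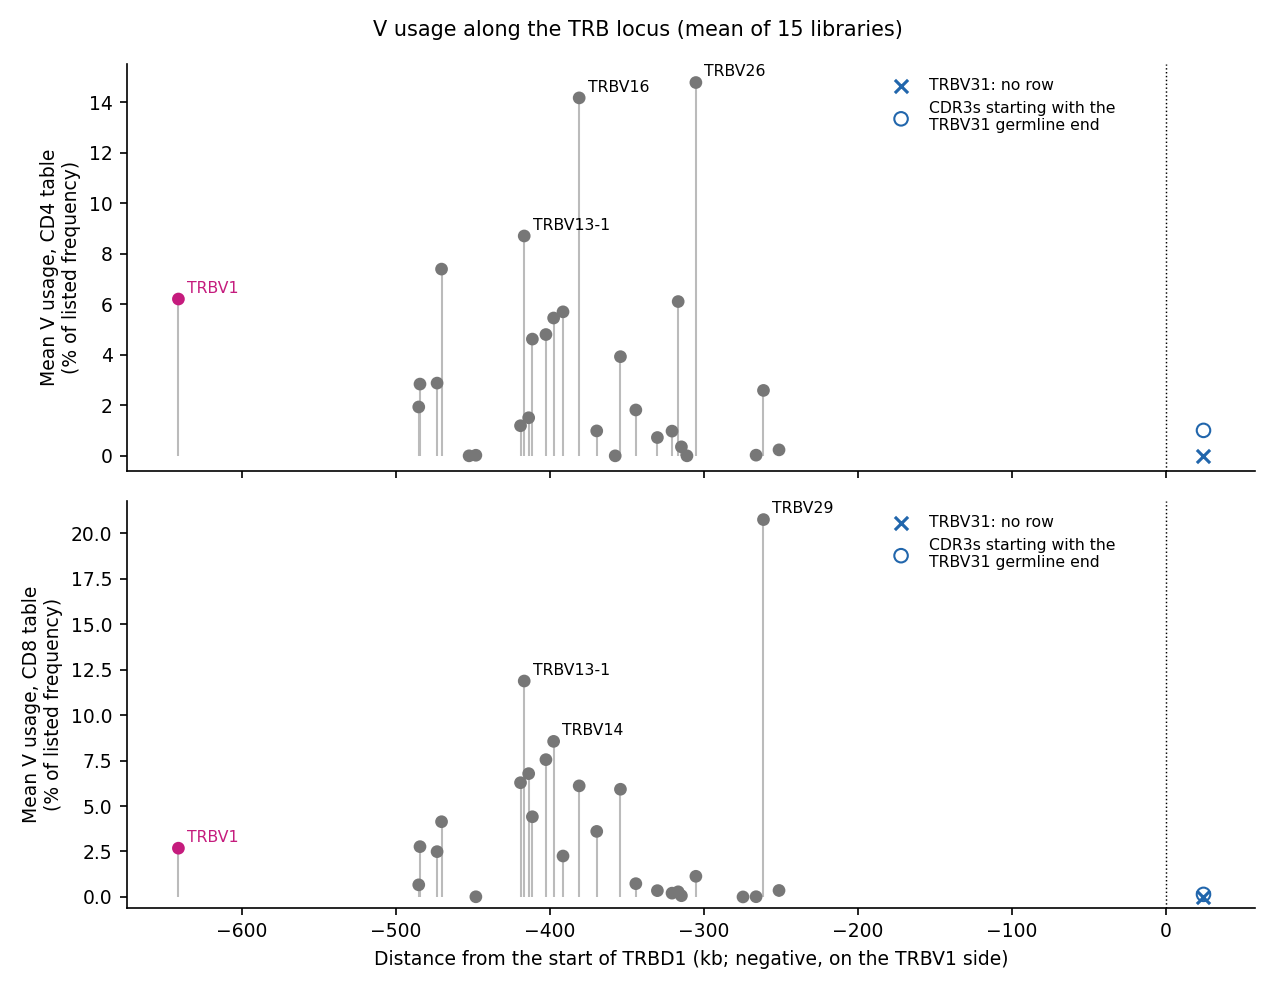
Mean usage of each V name over 15 libraries (vertical axis, % of listed frequency) against the distance of the gene from the start of TRBD1 (kb), in the CD4 (top) and CD8 (bottom) tables. TRBV1, in magenta, stands alone at the far left, at 6.21% and 2.68%. A cross marks TRBV31, which had no row, and an open circle the mean share of CDR3s that start with its germline end, 1.01% and 0.141%.

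In CD4 cells, TRBV1 usage was lower in gut than in liver. Labelled before HCT, it was 5.48% in the WT library, 6.12% in STAT3ko and 7.37% in STAT3koPD-1ko. In liver the WT libraries were at 7.23% and 7.30%, the STAT3ko libraries at 7.62% and 6.12%, and the STAT3koPD-1ko libraries at 8.71% and 8.43%. In gut the WT libraries were at 5.06% and 3.95%, the STAT3ko libraries at 4.04% and 4.13%, and the STAT3koPD-1ko libraries at 5.41% and 6.20%. Within every genotype both gut libraries were below both liver libraries. Across genotypes, only STAT3koPD-1ko gut replicate 2 (6.20%) was above the lowest liver library, STAT3ko liver replicate 2 (6.12%).

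Means were 6.32% ± 0.958 (SD, n = 3) before HCT, 7.57% ± 0.933 (n = 6) in liver and 4.80% ± 0.910 (n = 6) in gut. By limma on log2(percent + 0.1), fitted over the 21 V segments that took 0.5% or more on average, TRBV1 fell by 0.66 from liver to gut on this log2 scale (SE 0.10, Benjamini-Hochberg adjusted p = 0.000100), and it fell by 0.40 from before HCT to gut (SE 0.12, adjusted p = 0.00711). The difference between liver and before HCT was 0.26 (SE 0.12, adjusted p = 0.376). Such calls were common, since 85.7% of the segments tested were called between gut and liver (61.9% lower in gut) and 81% between gut and before HCT (57.1% lower). The median over all segments was -0.46 between gut and liver and -0.40 between gut and before HCT, the latter the same as the value of TRBV1. Between liver and before HCT, 9.52% of segments were called.

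TRBV26 and TRBV23 together took 33.2% to 39.6% of the listed frequency of the CD4 gut libraries, against 10.4% to 16.2% in liver and 5.99% to 7.74% before HCT, and a percentage of the whole moves with them. As a percentage of the total without these 2 segments, TRBV1 was 6.78% ± 0.995 before HCT, 8.67% ± 0.987 in liver and 7.52% ± 1.51 in gut. On that scale the liver to gut difference was -0.22 (limma, adjusted p = 0.109), and the difference between gut and before HCT turned to 0.14 (adjusted p = 0.407). With each clonotype counted once, the gut to liver difference was -0.24 (adjusted p = 0.0734), while that between gut and before HCT stayed at -0.42 (adjusted p = 0.00331). Among productive rows alone (CDR3s that open with C and close with F, W or L, without a stop or frame mark), TRBV1 was lower in gut than in liver by a log2 difference of -0.36 (adjusted p = 0.00779), but the gut to before HCT difference was -0.04 (adjusted p = 0.821). As a percentage of all reads of a library, the differences were larger, -1.14 between gut and liver (adjusted p = 0.000388) and -0.93 between gut and before HCT (adjusted p = 0.00165), where the medians over all 21 segments were -0.96 and -0.93. The size of the TRBV1 difference in CD4 gut thus depended on the total it was set against, and each of the 2 calls was lost on some of these scales.

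In CD8 cells, TRBV1 usage before HCT was 3.23% in WT, 2.57% in STAT3ko and 2.60% in STAT3koPD-1ko. The liver libraries were at 2.86% and 3.32% in WT, 3.00% and 2.75% in STAT3ko, and 3.30% and 3.36% in STAT3koPD-1ko. In gut, replicate 1 was at 3.53%, 2.58% and 2.84% in the order WT, STAT3ko, STAT3koPD-1ko, and replicate 2 at 1.58%, 1.26% and 1.45%. The 3 gut replicate 2 libraries lay below all 12 other CD8 libraries, and the gut replicate 1 libraries lay within the range of or just outside liver.

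The CD8 means were 2.80% ± 0.376 (n = 3) before HCT, 3.10% ± 0.263 (n = 6) in liver and 2.21% ± 0.911 (n = 6) in gut. No tissue difference of TRBV1 was called by limma over 18 segments. It was -0.56 (SE 0.22, adjusted p = 0.0569) between gut and liver, -0.42 (SE 0.25, adjusted p = 0.164) between gut and before HCT and 0.14 (SE 0.25, adjusted p = 0.799) between liver and before HCT, where 38.9%, 50% and 0% of the segments were called (for the last, 2 of 18 had an unadjusted limma p under 0.05). With the replicate number of the day 6 libraries as a block, the gut to liver difference of -0.56 passed (adjusted p = 0.0159). As a percentage of all reads of a library rather than of the listed ones, the gut to liver difference (-0.97, adjusted p = 0.0166) and the gut to before HCT difference (-0.86, adjusted p = 0.0495) passed, where the medians over all 18 segments were -0.43 and -0.49. The gut value rested on the replicate: without the 3 gut replicate 2 libraries the gut to liver difference was -0.06 (adjusted p = 0.657), and without the 3 gut replicate 1 libraries it was -1.07 (adjusted p = 3.36e-10). The gut to liver difference also passed without single libraries, at -0.73 (adjusted p = 0.0132) without WT gut replicate 1, -0.68 (adjusted p = 0.0362) without STAT3ko gut replicate 1 and -0.66 (adjusted p = 0.0469) without STAT3koPD-1ko gut replicate 1, and the gut to before HCT difference passed at -0.57 (adjusted p = 0.0488) without WT gut replicate 1. TRBV26 and TRBV23 took at most 2.57% of any CD8 library.

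**Figure D2:**
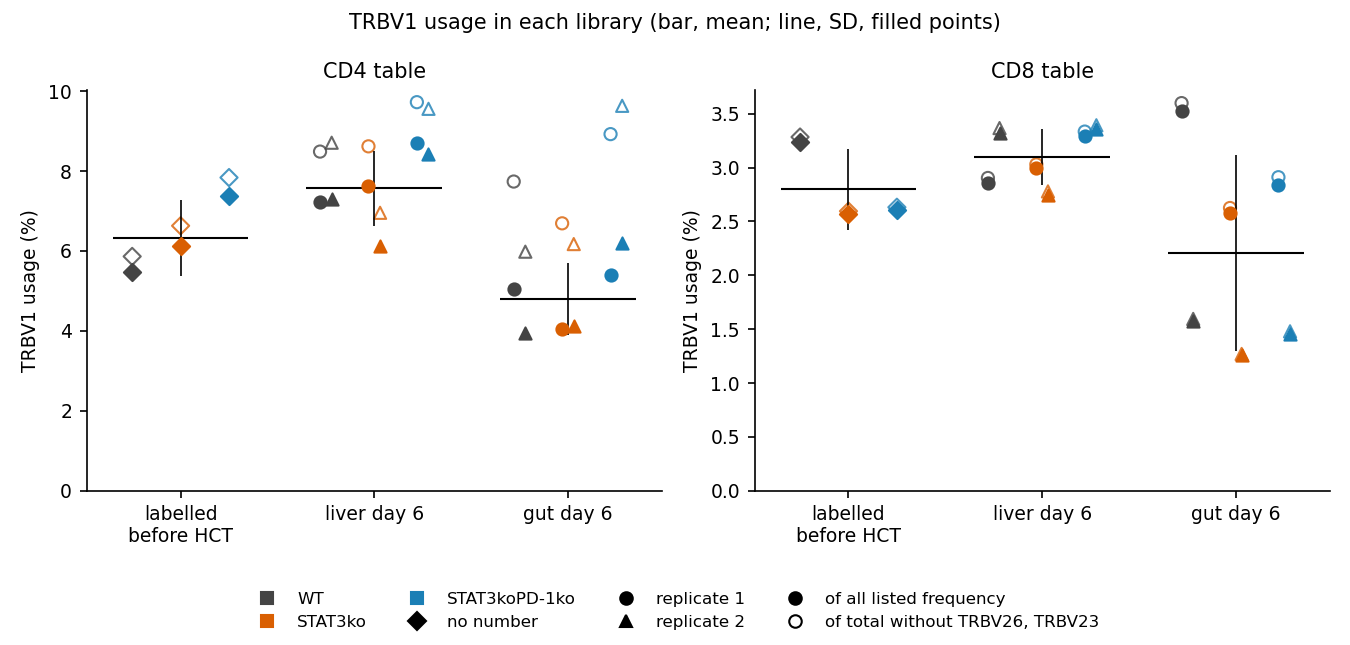
TRBV1 usage (% of listed frequency) in each of the 15 CD4 libraries (left) and 15 CD8 libraries (right), by tissue and genotype, with the mean (bar) and SD (line) of the filled points; open points are the percentage of the total without TRBV26 and TRBV23. Filled CD4 gut points lie lower than most liver points while the open ones overlap with liver, and the 3 CD8 gut replicate 2 points are the lowest of their table.

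Genotypes did not differ past the threshold. In CD4 day 6 libraries, TRBV1 was higher in STAT3koPD-1ko than in STAT3ko by 0.41 on the log2 scale (SE 0.13, limma unadjusted p = 0.00705, adjusted p = 0.148), and each STAT3koPD-1ko library exceeded both STAT3ko libraries of its tissue. The difference from WT was 0.30 (SE 0.13, adjusted p = 0.147) for STAT3koPD-1ko and -0.11 (SE 0.13, adjusted p = 0.820) for STAT3ko. None of the 21 segments was called by limma in these contrasts (0%), with 4, 6 and 0 of them at an unadjusted p under 0.05 in the order given. With all 28 V names tested, the first of these differences passed (adjusted p = 0.0489). In CD8 libraries the genotype differences of TRBV1 were between -0.23 and 0.18, with SE 0.27 and adjusted p of 0.762 or more, against 0% of segments called between STAT3ko and WT and between STAT3koPD-1ko and STAT3ko (1 and 3 of 18 at an unadjusted limma p under 0.05) and 5.56% between STAT3koPD-1ko and WT. Interactions of tissue and genotype had adjusted p of at least 0.930 in CD4 and 0.945 in CD8 libraries, with 0% of segments called by limma (at most 1 per contrast at an unadjusted p under 0.05), so that the tissue difference was not shown to differ between genotypes.

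TRBV1 CDR3s kept most of the germline end. The tables gave a median of 15 bases to V in CD4 rows and 16 in CD8 rows, and 3410 CD4 rows (71.8%) and 2584 CD8 rows (72.9%) kept the first 5 residues that the germline bases encode. All but 1 row of each table were productive in form (4749 and 3546 rows), whereas 78.7% of all CD4 rows and 96.5% of all CD8 rows were. In rows with a D, V and J were 10 bases apart (median), of which 8 in CD4 and 7 in CD8 were given to D. In rows with no D they were 4 bases apart.

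The D and J partners of TRBV1 differed from those of the other V segments in more measures than the average segment in CD4, and in fewer in CD8. Shares were computed within each library as a percentage of the frequency of TRBV1 and of all other V names, and compared over 15 libraries with a two-sided permutation test that flips the sign of each library's difference over all patterns, with Benjamini-Hochberg adjustment over 34 values. Of 17 measures per table (12 J segments, the TRBJ2 cluster, 3 D classes and CDR3 length), 12 passed in CD4 (5 higher and 7 lower in TRBV1) and 7 passed in CD8 (3 higher and 4 lower). Tested in the same way, every V segment against the rest gave 48.2% of measures called in CD4 and 56.9% in CD8, against 70.6% and 41.2% for TRBV1, whose number of calls was the same when adjusted over the values of every segment. The smallest p this test can give is 6.1e-05, which is 0.000346 after adjustment, and libraries that share clonotypes were treated as separate.

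TRBV1 was joined more often to TRBJ1-1 and less often to the TRBJ2 cluster than the rest of the CD4 repertoire. TRBJ1-1 took 11.4% to 30.8% (median 19.4%) of TRBV1 frequency and 9.38% to 14.9% (median 11.3%) of that of the other V names. Means were 19.6% ± 4.12 and 11.5% ± 1.55 (SD, n = 15), and TRBV1 was higher in 15 of 15 libraries (permutation adjusted p = 0.000346), in a measure called for 61.9% of V segments. By mean share of TRBJ1-1, TRBV1 ranked 1 of 21 CD4 segments. In CD8 cells TRBJ1-1 took 15.4% ± 4.96 of TRBV1 and 13.1% ± 0.833 of the other V names, which did not pass (permutation adjusted p = 0.106, higher in 11 of 15), but it passed without STAT3ko liver replicate 1 (2.86 percentage points, permutation adjusted p = 0.0388) or with each clonotype counted once (2.84 percentage points, permutation adjusted p = 0.000755).

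TRBJ1-6 was called higher in both tables, a measure called for 61.9% of CD4 and 61.1% of CD8 segments. It took 5.37% ± 1.46 of CD4 TRBV1 frequency against 2.68% ± 0.429 elsewhere (15 of 15 libraries, permutation adjusted p = 0.000346), and the ranges, 3.67% to 8.83% and 1.46% to 3.17%, did not overlap. In CD8 cells it took 4.41% ± 1.38 against 2.82% ± 0.506 (13 of 15, permutation adjusted p = 0.00986), the highest mean of the 18 CD8 segments. TRBJ1-5 was also higher in CD4 TRBV1 (2.57% ± 1.41 against 1.67% ± 0.496, permutation adjusted p = 0.0249) and TRBJ1-4 in CD8 TRBV1 (5.29% ± 1.48 against 4.45% ± 0.493, permutation adjusted p = 0.0454), in measures called for 33.3% of CD4 and 16.7% of CD8 segments. With each clonotype counted once, the CD4 TRBJ1-5 difference was 1.94 percentage points (15 of 15 libraries, permutation adjusted p = 0.000138), against 0.905 by frequency. By frequency, TRBJ1-5 did not pass without TRBV21, TRBV23 and TRBV26 among the other V names (permutation adjusted p = 0.0742) or over the 12 day 6 libraries alone (permutation adjusted p = 0.0771). CD8 TRBJ1-4 did not pass over the 12 day 6 libraries (permutation adjusted p = 0.136), and it lost its call in 11 of 15 settings that each left out 1 library (all but WT liver replicate 1, STAT3ko liver replicates 1 and 2 and STAT3koPD-1ko gut replicate 2), with a permutation adjusted p of up to 0.0863.

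The TRBJ2 cluster took 40.7% to 63.5% (median 57.5%) of TRBV1 frequency in CD4 libraries and 62.1% to 68.8% (median 66.1%) of the frequency of the other V names. The mean was 55.2% ± 6.65 for TRBV1, the lowest of 21 segments, and 65.9% ± 2.44 for the others, and TRBV1 was lower in 15 of 15 libraries (permutation adjusted p = 0.000346). The TRBJ2 cluster was called for 38.1% of CD4 segments. In CD8 cells the means were 64.5% ± 6.50 and 70.0% ± 1.26 (lower in 13 of 15, permutation adjusted p = 0.00461), in a measure called for 88.9% of CD8 segments.

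Within the TRBJ2 cluster, TRBJ2-1 and TRBJ2-3 were called lower with TRBV1 in both tables, though the CD8 calls depended on the setting. TRBJ2-3 took 6.77% ± 2.80 against 9.68% ± 0.591 in CD4 (permutation adjusted p = 0.00498) and 5.45% ± 1.88 against 7.35% ± 1.05 in CD8 (permutation adjusted p = 0.0166), a measure called for 33.3% and 44.4% of segments. TRBJ2-1 took 7.26% ± 2.51 against 9.33% ± 0.684 in CD4 (permutation adjusted p = 0.00461) and 13.5% ± 3.19 against 15.8% ± 0.755 in CD8 (permutation adjusted p = 0.0278), a measure called for 42.9% and 38.9% of segments. Over the 12 CD8 day 6 libraries alone neither passed (permutation adjusted p = 0.0598 for TRBJ2-3 and 0.0557 for TRBJ2-1). CD8 TRBJ2-1 also did not pass with each clonotype counted once, with productive rows alone or without TRBV21, TRBV23 and TRBV26 (permutation adjusted p = 0.0600, 0.0526 and 0.0578). In CD4 cells TRBJ2-5 (10.3% ± 2.83 against 12.4% ± 1.48, permutation adjusted p = 0.0375) and TRBJ2-7 (15.1% ± 3.73 against 17.9% ± 1.37, permutation adjusted p = 0.0322) were also lower with TRBV1, in measures called for 57.1% and 52.4% of segments. TRBJ2-5 lost its call in 10 of 15 settings that each left out 1 library (all but the STAT3koPD-1ko library labelled before HCT, STAT3koPD-1ko liver replicate 1, WT liver replicate 2, WT gut replicate 1 and STAT3ko gut replicate 2). TRBJ2-7 lost it in 5 of 15, namely without the STAT3ko or the STAT3koPD-1ko library labelled before HCT, STAT3koPD-1ko liver replicate 1, WT gut replicate 2 or STAT3ko gut replicate 2. In these settings their permutation adjusted p rose to at most 0.0653 and 0.0583, and over the 12 day 6 libraries alone, where neither passed, it was 0.110 and 0.0664. In CD8 cells neither passed, but TRBJ2-7 did without the WT library labelled before HCT (-3.08 percentage points, permutation adjusted p = 0.0276), and whether the tables differ was not tested. CD8 TRBJ2-5 differed by 0.290 percentage points by frequency, but was lower with TRBV1 with each clonotype counted once (-1.05, permutation adjusted p = 0.0259). By frequency, TRBJ1-2, TRBJ1-3, TRBJ2-2 and TRBJ2-4 passed in neither table, with permutation adjusted p from 0.133 to 0.963. With each clonotype counted once, TRBJ1-2 was lower with TRBV1 in both tables (-0.767 percentage points in CD4 and -1.07 in CD8, permutation adjusted p = 0.000623 and 0.000244). TRBJ1-3 was then lower in CD4 (-0.867, permutation adjusted p = 0.00571) and higher in CD8 (0.760, permutation adjusted p = 0.0490), and TRBJ2-2 higher in CD4 (0.336, permutation adjusted p = 0.0490) and lower in CD8 (-1.02, permutation adjusted p = 0.00244).

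TRBV1 CDR3s carried TRBD1 more often and TRBD2 less often in CD4 cells. TRBD1 was named in 44.4% to 65.6% (median 51.6%) of TRBV1 frequency and in 37.1% to 43.8% (median 41.7%) of that of the other V names, with no overlap. TRBD2 was named in 6.72% to 17.99% (median 14.3%) against 24.3% to 35.7% (median 28.6%), again with no overlap. Means were 53.1% ± 5.22 against 41.5% ± 1.99 for TRBD1 and 13.4% ± 3.62 against 30.3% ± 3.69 for TRBD2 (permutation adjusted p = 0.000346 for both). TRBD1 was called for 71.4% and TRBD2 for 57.1% of CD4 segments, and TRBV29 alone had more TRBD1 (55.2%). In CD8 cells TRBD2 was at 24.6% ± 4.58 against 28.0% ± 1.01 (permutation adjusted p = 0.0257), and TRBD1 at 43.2% ± 4.48 against 41.0% ± 1.45 did not pass (permutation adjusted p = 0.0806), but passed without STAT3ko liver replicate 1 (2.95 percentage points, permutation adjusted p = 0.00926) or with each clonotype counted once (2.71 percentage points, permutation adjusted p = 0.000244). TRBD2 was called for 83.3% of CD8 segments, and its CD8 difference went from -3.45 to -7.61 percentage points with each clonotype counted once (permutation adjusted p = 0.000138).

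A set of 3 other V names, TRBV21, TRBV23 and TRBV26, stood apart in CD4 and moved these contrasts. TRBV26 had a mean CDR3 length of 34.5 residues and TRBD2 in 63.2% of its frequency, and TRBV21 had 96.6% TRBJ2-1 and a mean length of 6.37 residues. TRBV1 CDR3s averaged 13.8 residues ± 0.157 against 16.9 ± 1.97 for the other V names, a difference of -3.14 (permutation adjusted p = 0.000346, in a measure called for 95.2% of segments) that became 0.0640 (permutation adjusted p = 0.0742) without TRBV21, TRBV23 and TRBV26. Among productive rows alone TRBV1 CDR3s were longer, by 0.0967 residues (13 of 15 libraries, permutation adjusted p = 0.00553). The share with no D named was 33.6% ± 5.32 against 28.2% ± 3.23 (permutation adjusted p = 0.00924, called for 57.1% of segments), and without the 3 segments the difference was 0.336 percentage points (permutation adjusted p = 0.787). With the 3 segments kept and each clonotype counted once, the CD4 differences were 10.6 percentage points for no D and -5.02 residues for length (permutation adjusted p = 0.000138 for both). TRBJ1-1, TRBJ1-6, the TRBJ2 cluster, TRBD1 and TRBD2 kept their calls without these 3 segments, but the TRBD2 difference went from -16.9 to -11.1 percentage points, and to -10.9 with productive rows alone. In CD8 cells TRBV1 CDR3s were longer, 13.96 residues against 13.69 (14 of 15 libraries, permutation adjusted p = 0.000889), in a measure called for 77.8% of segments. This difference of 0.265 residues was 0.487 without TRBV21, TRBV23 and TRBV26, where CD8 TRBV26 had a mean length of 34.4 residues, and 0.509 with productive rows alone (15 of 15 libraries and permutation adjusted p = 0.000346 for both). With each clonotype counted once it was -0.363 residues, so that TRBV1 CDR3s were then shorter (permutation adjusted p = 0.000138).

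By row, TRBD1 was found with both J clusters and TRBD2 mostly with TRBJ2. Of CD4 TRBV1 rows with TRBD1, 1306 had a TRBJ1 and 1106 a TRBJ2 segment, whereas of those with TRBD2, 87 had a TRBJ1 and 786 a TRBJ2 segment. CD8 rows had 761 and 783 with TRBD1 and 59 and 832 with TRBD2. Rows with no D named were 650 and 815 in CD4 and 508 and 604 in CD8. The D name rests on a median of 7 or 8 bases, and whether the few TRBD2 rows with TRBJ1 are such joints was not tested.

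**Figure D3:**
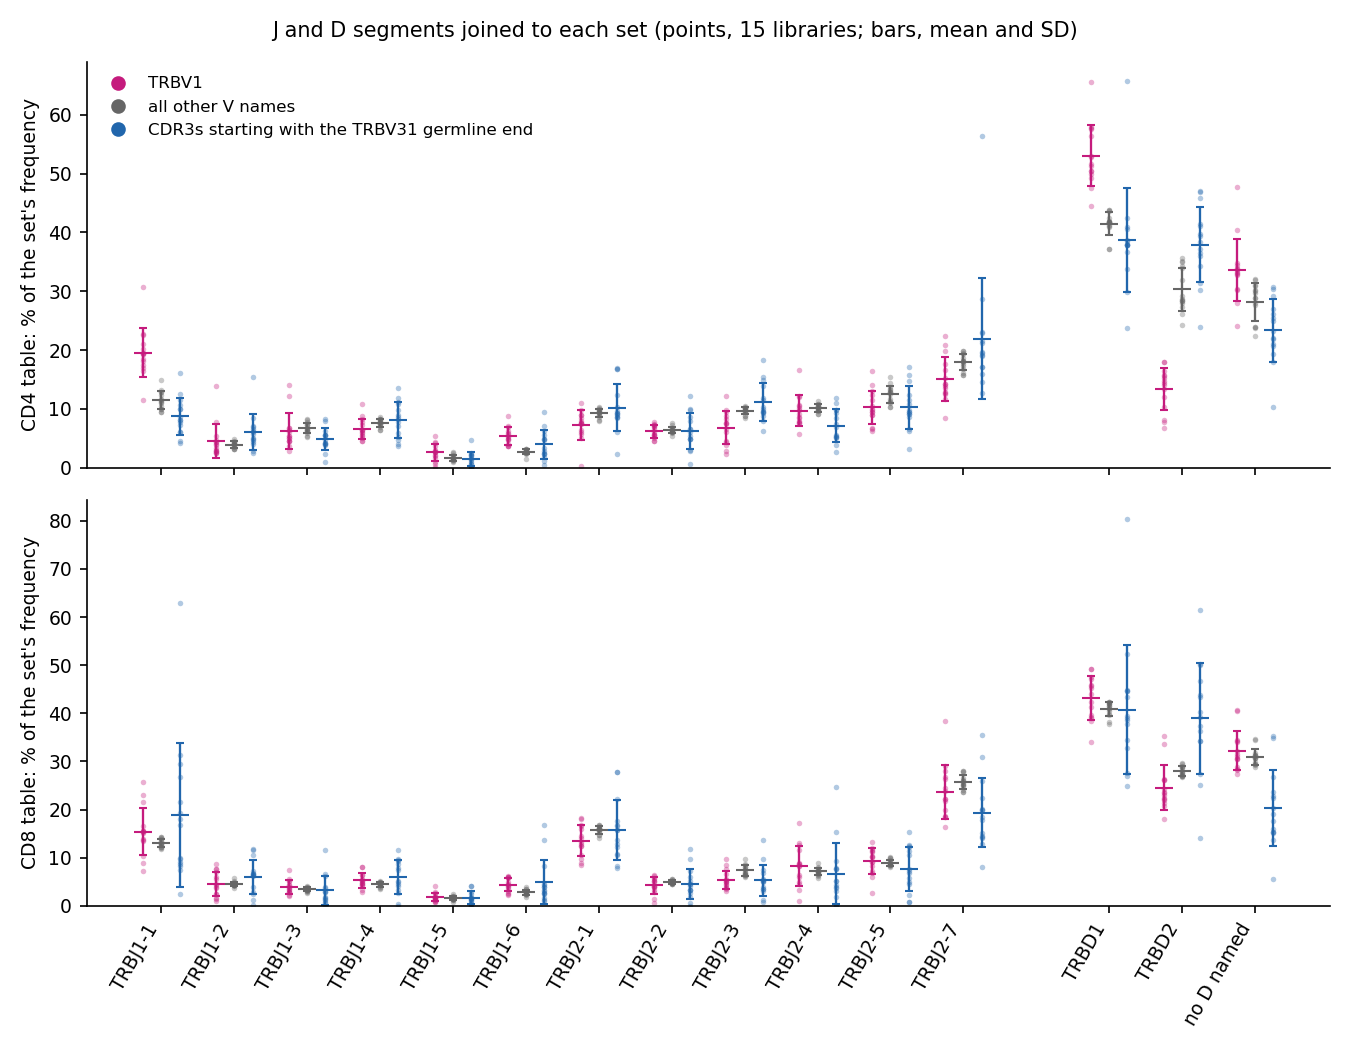
Share of each J segment and D class (% of the frequency of the set) in the CD4 (top) and CD8 (bottom) tables for TRBV1, all other V names and CDR3s that start with the TRBV31 germline end; points are 15 libraries, bars the mean and SD. In CD4, TRBV1 lies above the other V names at TRBJ1-1 (19.6% against 11.5%) and TRBD1 (53.1% against 41.5%) and below them at TRBD2 (13.4% against 30.3%).

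The TRBJ2 cluster share of TRBV1 was lower in gut than in liver libraries, but not past the threshold when every V segment was tested. In CD4 libraries the cluster took 49.9% ± 6.97 of TRBV1 frequency in gut and 58.6% ± 3.76 in liver (n = 6 each; exact two-sided permutation test over 924 splits, p = 0.0152, adjusted over the 6 tests of TRBV1 p = 0.0455). In CD8 libraries it took 59.3% ± 7.04 in gut and 67.0% ± 3.55 in liver (exact permutation p = 0.0108, adjusted p = 0.0455). Adjusted over 3 measures of every V segment in both tables, both values had p = 0.253 by the same exact permutation test, and 0% of segments were called in either table, with 4 of 21 CD4 and 5 of 18 CD8 segments at an unadjusted p under 0.05. The median difference over all segments was -2.14 percentage points in CD4 and -1.78 in CD8, lower in gut for 14 of 21 and 11 of 18 segments. With gut and liver libraries of the same genotype and number taken as pairs, gut was lower in 6 of 6 pairs in each table (sign-flip permutation p = 0.0313, the smallest 6 pairs can give, adjusted over 6 tests p = 0.0938). The differences are the same as without pairs, and since this p is the floor of the test, its adjusted value says nothing of a weaker difference.

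The other V names had 63.3% ± 0.926 TRBJ2 in gut and 67.4% ± 1.38 in liver in CD4, and 69.6% ± 1.23 and 70.2% ± 1.48 in CD8. The gap between TRBV1 and the other V names changed from liver to gut by -4.55 percentage points in CD4 (exact permutation p = 0.229, adjusted over 6 tests p = 0.229) and by -7.09 in CD8 (exact permutation p = 0.0303, adjusted p = 0.0455). For TRBD2 the CD4 gap changed by -8.91 percentage points (exact permutation adjusted p = 0.00649), where the other V names went from 28.5% in liver to 34.3% in gut. The CD8 TRBD2 gap did not pass (-3.98, exact permutation adjusted p = 0.0909), and the CDR3 length gap changed by -3.56 residues in CD4 and -0.241 in CD8 (exact permutation adjusted p = 0.00649 and 0.0173). In CD4 the other V names went from 15.8 residues in liver to 19.2 in gut, while TRBV1 went from 13.8 to 13.7. The other V names include TRBV26, which took 7.12% to 12.4% of CD4 liver libraries and 22.6% to 28.0% of gut libraries. Within TRBV26, TRBD2 was at 63.2% in liver and 63.3% in gut, and mean length was 34.6 and 34.5 residues. The CD4 gap changes therefore include this shift in the makeup of the other V names, and the gaps without TRBV26 were not tested. The tests of every segment, of pairs and of these gaps were chosen after seeing the data. In unpaired tests of TRBV1 alone, leaving out 1 library at a time ended the TRBJ2 call in 9 of 12 settings in CD4 (all but STAT3koPD-1ko liver replicate 2, WT gut replicate 1 and STAT3ko gut replicate 1, exact permutation adjusted p of up to 0.149) and in 5 of 12 in CD8 (up to 0.0909), namely without WT liver replicate 1 or 2, STAT3ko liver replicate 1, STAT3koPD-1ko liver replicate 1 or STAT3ko gut replicate 2. The lowest value of both tables was STAT3ko gut replicate 2, at 40.7% and 45.8%. Without the 3 gut replicate 2 libraries the differences were -3.75 and -3.98 percentage points and did not pass (exact permutation test, adjusted p = 0.5 for both), and with each clonotype counted once they were -3.34 and -2.53 (exact permutation adjusted p = 0.197 for both). The TRBD2 share and CDR3 length of TRBV1 did not differ past the threshold between the tissues (exact permutation adjusted p = 0.165 for the 4 tests).

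TRBV1 frequency was spread over many clonotypes. A CD4 library listed between 137 and 1494 TRBV1 clonotypes and a CD8 library between 202 and 1075. The Shannon effective number, the number of equally frequent clonotypes with the same entropy, was 64.9 to 720 in CD4 (median 301) and 78.5 to 529 in CD8 (median 242). It was highest in WT gut replicate 1 of the CD4 table and in STAT3koPD-1ko gut replicate 1 of the CD8 table. The most frequent clonotype took 1.84% to 12.1% of TRBV1 frequency in CD4 and 1.61% to 8.52% in CD8.

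The leading clonotypes are printed to show how TRBV1 meets D and J. They are those with the highest mean frequency, or with the highest geometric mean among the most widely listed, in a table. Capitals mark bases that the table gave to neither V nor J. The first 4 are from the CD4 table and the other 4 from the CD8 table, each under the segments named for it.
TRBD1 and TRBJ1-2: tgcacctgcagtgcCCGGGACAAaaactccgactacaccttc
TRBJ2-4 with no D: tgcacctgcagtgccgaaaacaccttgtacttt
TRBD1 and TRBJ1-1, 14 residues: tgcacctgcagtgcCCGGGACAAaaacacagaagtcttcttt
TRBD1 and TRBJ1-1, 15 residues: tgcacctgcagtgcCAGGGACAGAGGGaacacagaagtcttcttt
TRBD1 and TRBJ2-7: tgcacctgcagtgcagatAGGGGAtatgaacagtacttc
TRBJ1-1 with no D: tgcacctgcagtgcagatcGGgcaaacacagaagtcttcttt
TRBD1 and TRBJ1-1, 5 bases between V and J: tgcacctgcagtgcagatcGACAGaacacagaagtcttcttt
TRBD1 and TRBJ1-1, 6 bases between V and J: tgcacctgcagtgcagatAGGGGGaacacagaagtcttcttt

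The CD4 clonotype of TRBD1 and TRBJ1-2 was listed in 13 of 15 libraries at a median of 0.00141% and reached 0.752% of the listed frequency in STAT3koPD-1ko gut replicate 2, where it made up 12.1% of TRBV1. That library also had the highest TRBJ1-2 share of TRBV1, 13.8%. The CD4 clonotype with no base between V and TRBJ2-4 was listed in 13 libraries at a median of 0.0157% and reached 0.243% in the same library. The CD8 clonotype of TRBD1 and TRBJ2-7 reached 0.276% in the WT library labelled before HCT and was listed in 8 CD8 libraries.

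A pair of TRBV1 clonotypes in each table was listed in all 15 libraries, and all 4 were named with TRBJ1-1. In CD4 libraries the one of 14 residues ranged from 0.00122% to 0.147% (median 0.0286%) and the one of 15 residues from 0.00462% to 0.172% (median 0.0187%). In CD8 libraries the one with no D ranged from 0.00350% to 0.0540% and the one with 6 bases between V and J from 0.00133% to 0.0626%. Such clonotypes were 0.0421% of TRBV1 rows in CD4 and 0.0564% in CD8, beside 0.0700% and 0.229% of all rows. Of the TRBV1 combinations of CDR3 and J, 516 were in both tables, 10.9% of the CD4 and 14.5% of the CD8 combinations.

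Although no row was named TRBV31, its germline start was present. The 9 bases TGTGCCTGG began 2458 CD4 rows (2.87% of all rows) under 18 V names and 669 CD8 rows (0.811%) under 11. None of these was named TRBV1. This set was chosen after the absence of the name was seen, so it is described here with no test. The next 3 bases of Trbv31 were also present in 1862 CD4 and 441 CD8 rows, and all 14 germline bases in 1195 and 271 rows. All 2458 CD4 rows and 668 of the 669 CD8 rows were productive in form.

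TRBV22 was the name given to most of them, 1300 rows (52.9%) in CD4 and 346 (51.7%) in CD8. TRBV17 followed with 409 and 120 rows. TRBV24 was next in CD4 with 270 rows, and in CD8 it had 53, behind TRBV4 with 57. The printed germline ends of Trbv22, Trbv17 and Trbv24 do not hold TGTGCCTGG. Rows with this start made up 64.1% of the CD4 TRBV22 rows, 37.8% of TRBV24 and 35.8% of TRBV17. In CD8 they were 42.1%, 18.3% and 4.09%. The tables gave a median of 12 CDR3 bases to V in the TRBV22 rows, 14 in TRBV24 and 5 in TRBV17. The annotation lists Trbv22 and Trbv24 as pseudogenes, and Trbv17 and Trbv31 as V genes. Whether such a row is a TRBV31 joint that was given another V name was not tested beyond these CDR3 bases.

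The leading examples in the CD4 table, all 4 named TRBV22, are shown for comparison with the germline end of Trbv31, with capitals again for bases given to neither V nor J.
TRBD1 and TRBJ2-7, 13 residues: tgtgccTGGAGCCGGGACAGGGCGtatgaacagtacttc
TRBD2 and TRBJ2-3: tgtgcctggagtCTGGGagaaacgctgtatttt
TRBD1 and TRBJ2-7, 14 residues: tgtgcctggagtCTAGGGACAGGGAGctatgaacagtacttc
TRBD2 and TRBJ2-7: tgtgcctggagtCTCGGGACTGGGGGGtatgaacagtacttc
The first was at 0.449% of the listed frequency in STAT3koPD-1ko gut replicate 2 and was listed in only 2 libraries, whereas the last was listed in 14 at up to 0.0212%.

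Rows with this start took 1.01% ± 0.287 (SD, n = 15) of the listed frequency in CD4 libraries, from 0.553% to 1.46%, and 0.141% ± 0.0459 in CD8 libraries, from 0.0457% to 0.234%. TRBV1 was thus more frequent than these rows in every library. In CD4 cells they were at 1.18%, 1.34% and 1.39% before HCT in WT, STAT3ko and STAT3koPD-1ko. They ranged from 0.901% to 1.46% (median 1.15%) in liver and from 0.553% to 1.01% (median 0.740%) in gut, where only STAT3koPD-1ko gut replicate 2 was above the lowest liver library. In CD8 cells the means were 0.129% ± 0.0463 before HCT, 0.153% ± 0.0170 in liver and 0.134% ± 0.0666 in gut.

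**Figure D4:**
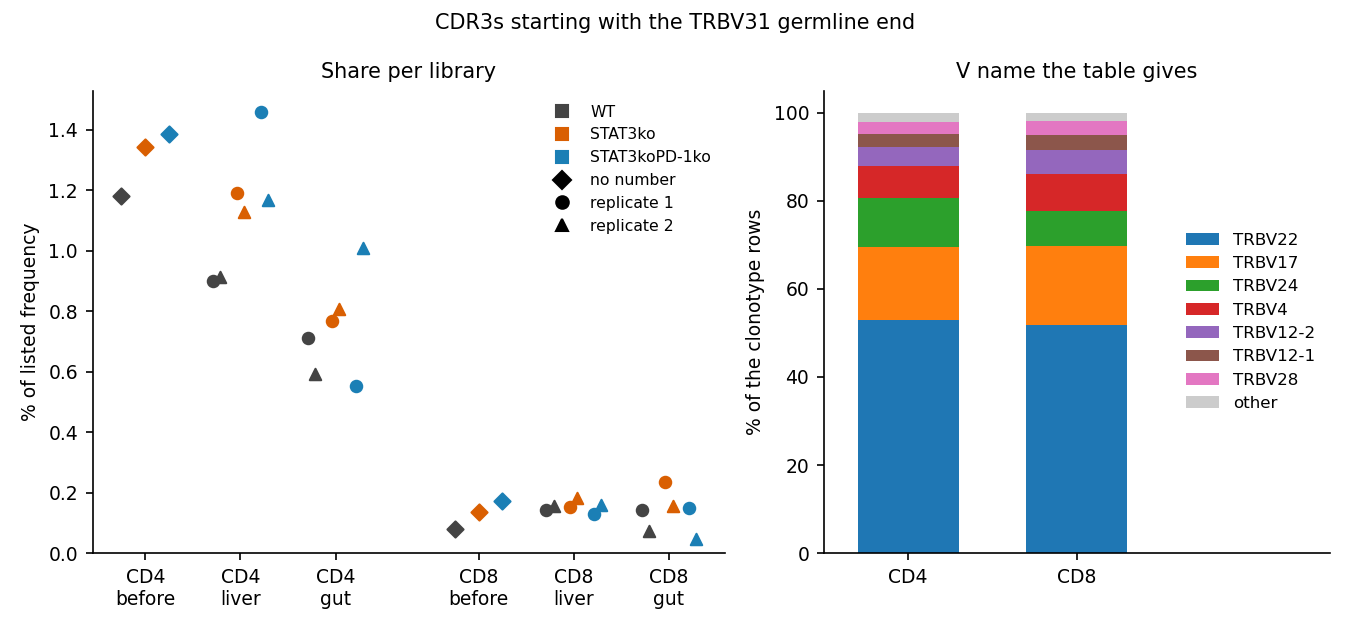
Left, percentage of listed frequency in CDR3s that start with the TRBV31 germline end in each library, by table, tissue, genotype (colour) and replicate (shape). Right, the V names that the tables give to these rows (% of rows): TRBV22 makes up 52.9% of 2458 CD4 rows and 51.7% of 669 CD8 rows.

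The D and J names of these rows differed from those of TRBV1 in the same libraries. In CD4 the TRBJ2 cluster took 66.9% ± 6.68 of their frequency, above TRBV1 (55.2%) in 15 of 15 libraries, and TRBD2 37.9% ± 6.37, above TRBV1 (13.4%) in 15 of 15. TRBJ1-1 took 8.74% ± 3.14, below TRBV1 (19.6%) in 15 of 15, and TRBJ2-3 took 11.1% ± 3.22, above TRBV1 (6.77%) in 15 of 15. TRBD1 was at 38.7% ± 8.82, and no D was named in 23.3% ± 5.35. Mean CDR3 length was 13.8 residues for both sets. The D names of these rows carry a limit. In the printed clonotype of TRBD2 and TRBJ2-3, the bases outside V and J open with CT, which also ends the germline Trbv31. Trbd2 holds CT before its longer run of G, so such V bases can count towards TRBD2. Whether this moved the shares of TRBD2 and of no D, in CD4 or CD8, was not tested.

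In CD8 the rows with the TRBV31 start had TRBD2 in 38.9% ± 11.5 of their frequency, above TRBV1 (24.6%) in 13 of 15 libraries, and no D in 20.3% ± 7.88, below TRBV1 (32.2%) in 13 of 15. Their TRBJ2 cluster share was 59.3% ± 14.8, above TRBV1 in 8 of 15 libraries, so the CD4 order at the J cluster did not recur there. Single clonotypes made up much of some libraries. In CD8 STAT3ko gut replicate 2, where TRBJ1-1 was at 62.8% and TRBD1 at 80.3%, 1 clonotype of TRBD1 and TRBJ1-1 held 0.0665% of the 0.156% in these rows. In CD4 STAT3koPD-1ko gut replicate 2, where TRBJ2-7 was at 56.4%, the first clonotype printed above held 0.449% of the 1.01%. With each clonotype counted once, TRBD2 was at 39.9% in CD4 and 39.0% in CD8, and the TRBJ2 cluster at 66.1% and 59.1%.

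Over the 15 libraries of a table, the V segments whose log2 usage was most like that of TRBV1 were TRBV2 (Pearson r = 0.78) and TRBV5 (r = 0.73) among 20 others in CD4, and TRBV20 (r = 0.81) and TRBV17 (r = 0.77) among 17 others in CD8. These are descriptions over libraries that share tissues, clonotypes and, in percentages, a common total. The pair named differed between the tables. In CD4, the lowest r values were those of TRBV12-1 (-0.78), TRBV21 (-0.69), TRBV12-2 (-0.69), TRBV26 (-0.67) and TRBV23 (-0.60).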

How the data were processed

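TCR libraries were made with the Takara SMARTer mouse TCR a/b kit and read as paired ends on a MiSeq, and mm10 is the genome build named in the labels. The authors called CDR3 clonotypes with MiXCR v3.0 at default settings and joined libraries by CDR3 amino acid sequence with VDJtools v1.1.7. The values they deposited are fractions of a library's reads, with no counts, for clonotypes found in at least 2 of 18 libraries, of which 3 are not analysed here. Other columns the authors deposited give the number of libraries and the positions of V, D and J in 1 representative CDR3, whose segment names a whole clonotype takes. The 30 libraries of the CD4 and CD8 beta chain tables were used (0 columns of values were left unmapped), and the alpha chain tables were not.

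Fractions of a V name were summed per library and expressed as a percentage of the listed fraction. For usage, limma (version 3.58.1, R 4.3.3) was fitted to log2(percent + 0.1) with tissue and genotype as terms, over V names with a mean of 0.5% or more, so a log2 difference understates the change of a low segment. J, D and CDR3 length were tested with sign-flip permutation over libraries, and gut against liver within TRBV1 with exact permutation. All tests were two-sided with Benjamini-Hochberg adjustment at 0.05. With no TRBV31 clonotype, the planned tests of TRBV31 were not run and the adjustment families hold 34 and 6 values. Scripts were tested on simulated data. Groups follow the labels, and the study's methods name batches that are not tied to replicate numbers. Whether numbers pair day 6 libraries was checked by the correlation of same-numbered libraries' deviations from their group means. Gut and liver of 1 genotype correlated at more than 0.1 in 3 of 3 pairs in CD8 (r from 0.13 to 0.30) and 1 of 3 in CD4 (0.01 to 0.18). Gut libraries of different genotypes correlated at 0.51 to 0.87 in CD8 and 0.36 to 0.50 in CD4, and liver libraries at -0.17 to 0.34 and -0.29 to 0.23. Over all pairs of groups, 9 of 15 in CD8 and 6 of 15 in CD4 were over 0.1. Gut and liver of different genotypes correlated at -0.09 to 0.23 in CD8, which overlaps the range within 1 genotype. Of its TRBV1 clonotypes, CD8 gut replicate 1 shared on average 47.8% with liver replicate 2 of its genotype and 40.0% with liver replicate 1. These values do not settle whether the numbers pair gut with liver, and no shared batch is stated.

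TRBV1, TRBV31, all J and D segments, the 2 V segments most correlated with TRBV1 and, per table, the 3 clonotypes with the highest mean and the 3 with the highest geometric mean among the most widely listed were named; where fewer than 3 clonotypes reached the largest number of libraries, those that did were taken. Members, lists and tests were chosen with earlier results of these data known. Alternatives changed the pseudocount, filter, total, clonotype weighting, productive form, log ratio, replicate block and libraries. Germline positions and sequences are from GENCODE vM21 on GRCm38.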

Additional observations from a re-analysis of the deposited data

Results flagged for a closer look

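In each tissue of a table with 6 libraries, the highest or lowest library was compared with the gap to its neighbour over the whole range, for TRBV1 usage, its 17 J, D and length measures and the share of CDR3s with the TRBV31 start. Of 76 groups, 6 (7.89%) held a library that stood apart. The cut, from Dixon's test, gives about 1 in 20 only for unlinked, normally spread values. These measures are linked percentages of the same libraries, so the 6 groups cannot be compared with chance.

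In CD4 liver, the TRBJ1-4 share of TRBV1 was 8.69% in STAT3koPD-1ko replicate 2 and 5.31% to 6.46% in the other libraries. In CD4 gut, the TRBJ2-5 share was 16.4% in STAT3ko replicate 2 and 6.26% to 9.76% in the others. STAT3ko liver replicate 1 stood apart in 3 measures of CD8 TRBV1. Its TRBJ1-1 share was 7.31% against 13.5% to 16.5% in the other liver libraries, its TRBJ2 cluster share was 73.8% against 64.0% to 67.5%, and its TRBD2 share was 35.3% against 22.0% to 26.2%. In CD8 gut, STAT3ko replicate 2 had the lowest TRBJ2 cluster share of TRBV1, 45.8%, with the others at 59.3% to 65.3%.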

How the results depend on the processing

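Log2 differences of TRBV1 usage, differences of shares in percentage points and numbers of V segments called are given below, for the results that answer a comparison and for reversed directions. The settings other than leaving out 1 library gave 590 values, of which 495 kept their direction and side of the threshold, or stayed within 1.5 times the count. The cause of the others was not tested. Depth is unknown, so counting error is not covered. The alternatives for TRBV31 and for the ratio of TRBV31 to TRBV1 were not run.

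As a percentage of all reads, CD4 liver against before HCT had 0 segments called (2 in the report; 2 of 21 at an unadjusted limma p under 0.05 there), CD8 TRBV1 differed by -0.86 between gut and before HCT and -0.97 between gut and liver, and STAT3koPD-1ko against WT had 0 called in CD8. With each clonotype counted once, CD4 TRBV1 differed by -0.18 between liver and before HCT, -0.24 between gut and liver and -0.0107 between STAT3koPD-1ko and WT, with 1 segment called in the first and 6 in the second contrast. In CD8 that setting gave 1 call for liver against before HCT, 3 for gut against liver and 0 for STAT3koPD-1ko against WT, where TRBV1 differed by 0.0139, and the interaction of tissue with STAT3koPD-1ko against STAT3ko was 0.0119.

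It also gave TRBV1 minus other V differences of -0.767 for TRBJ1-2 and 0.336 for TRBJ2-2 in CD4, and in CD8 of -1.07 for TRBJ1-2, -0.557 for TRBJ2-4, -1.05 for TRBJ2-5, 2.71 for TRBD1, 4.90 for no D and -0.363 residues for length, with 14 measures called. Of these J segments, TRBJ1-2 and TRBJ2-2 in CD4 and TRBJ1-2 and TRBJ2-5 in CD8 gained a call. Other J segments that gained a call were TRBJ1-3 (-0.867) and TRBJ1-4 (-0.747) in CD4 and TRBJ1-1 (2.84), TRBJ1-3 (0.760), TRBJ1-5 (0.553) and TRBJ2-2 (-1.02) in CD8, while CD8 TRBJ2-1 (-0.775) lost its call. The gut to liver differences of the TRBJ2 cluster were then -3.34 in CD4 and -2.53 in CD8.

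Without TRBV26 and TRBV23 in the total, CD4 TRBV1 differed by 0.14 between gut and before HCT (10 segments called) and -0.22 between gut and liver (9 called), liver against before HCT had 0 called, the interaction with STAT3ko against WT was 0.0681, and CD8 STAT3koPD-1ko against WT had 2 called. With productive CDR3s alone, CD4 gut against before HCT gave -0.0372 for TRBV1 and 11 calls, gut against liver 9 calls and liver against before HCT 1 call, CD8 STAT3koPD-1ko against WT had 2, and the CD4 pairing differences were 0.0661 for TRBJ1-3, 0.574 for no D and 0.0967 residues for length. Without TRBV21, TRBV23 and TRBV26 among the other V names, these were 0.336 for no D and 0.0640 residues for length.

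With the centred log ratio, CD4 gut against before HCT was -0.28, CD8 gut against liver -0.50, and 1 segment was called for CD8 STAT3koPD-1ko against STAT3ko. With all V names tested, CD4 STAT3koPD-1ko against STAT3ko was 0.41 with 1 call and CD8 STAT3koPD-1ko against WT had 2 calls. With a pseudocount of 1, CD8 gut against liver was -0.40 and STAT3koPD-1ko against WT had 0 called. With clonotypes capped at 0.1%, CD8 gut against liver was -0.53, its interaction with STAT3koPD-1ko against STAT3ko 0.00443, and TRBJ1-2 differed by -0.0450 in CD4 and -0.110 in CD8, while CD4 TRBJ1-3 (-1.09) and TRBJ1-4 (-1.15) gained a call and CD8 TRBJ1-4 (0.806) lost it. The 12 day 6 libraries alone gave 0.00920 for CD4 TRBJ2-2, -0.275 for CD8 TRBJ2-5 and 4 measures called in CD8, and CD4 TRBJ1-5 (0.825), TRBJ2-5 (-2.07) and TRBJ2-7 (-2.80) and CD8 TRBJ1-4 (0.824), TRBJ2-1 (-2.02) and TRBJ2-3 (-1.50) lost their calls. CD8 TRBJ1-4 also lost it with productive CDR3s alone (0.818) and without TRBV21, TRBV23 and TRBV26 (0.824), CD8 TRBJ2-1 in both (-1.93 and -1.96), and CD4 TRBJ1-5 in the latter (0.707).

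Chosen after seeing the data, leaving out the 3 gut replicate 2 libraries gave 0.0832 for CD8 gut against before HCT, 1 call for CD4 STAT3koPD-1ko against STAT3ko, 3 for CD8 STAT3koPD-1ko against WT, and within TRBV1 gut to liver differences of -3.75 (CD4) and -3.98 (CD8) for the TRBJ2 cluster, 0.635 for CD4 TRBD2 and 0.0259 residues for CD4 length. Leaving out the 3 gut replicate 1 libraries gave -0.92 for CD8 gut against before HCT, -1.07 for gut against liver, 0.0342 for STAT3koPD-1ko against WT and 1 call for STAT3koPD-1ko against STAT3ko. Replicate number 2 alone gave -1.08 for CD8 gut against liver, with 4 calls.

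With the replicate block, whose check is given with the processing, CD8 gut against liver was -0.56 and passed (adjusted p = 0.0159), 1 segment was called for CD8 STAT3koPD-1ko against STAT3ko, and no other call of TRBV1 usage changed. Chosen after seeing the data, the replicate block in the gut to liver test of the TRBJ2 cluster of TRBV1 left the differences at -8.68 in CD4 and -7.72 in CD8, with an adjusted p of 0.0938 for both that rests on the smallest p the sign-flip permutation of 6 pairs can give, so the lost calls do not speak for a weaker difference.

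Leaving out 1 library at a time, which leaves some genotype and tissue arms with 1 library assumed to vary like the rest, gave these ranges. In CD4, 1 to 2 segments were called for liver against before HCT (1 without the before HCT library of STAT3koPD-1ko) and 0 to 1 for STAT3koPD-1ko against WT (1 without STAT3ko gut replicate 2), and the interactions of TRBV1 ran from -0.21 to 0.13 (STAT3ko against WT) and -0.0449 to 0.30 (STAT3koPD-1ko against WT). In CD8, gut against before HCT ran from -0.57 to -0.29 with 0 to 10 calls (0 without the before HCT library of WT and 4 without that of STAT3koPD-1ko). Gut against liver ran from -0.73 to -0.43 with 1 to 10 calls, namely 1 without STAT3koPD-1ko liver replicate 1 or STAT3ko liver replicate 2, 2 without STAT3koPD-1ko liver or gut replicate 2 and 4 without WT liver replicate 1 or WT gut replicate 2. The CD8 genotype differences ran from -0.41 to 0.0108 (STAT3ko against WT), -0.0139 to 0.38 (STAT3koPD-1ko against STAT3ko, 0 to 1 calls, 1 without WT gut replicate 1) and -0.22 to 0.19 (STAT3koPD-1ko against WT, 0 to 3 calls, 3 without STAT3ko gut replicate 2, 2 without STAT3ko liver replicate 1 and 0 in 7 settings). CD8 interactions ran from -0.83 to 0.29, -0.53 to 0.45 and -0.87 to 0.24 in the same order. TRBJ1-2 differences ran from -0.143 to 0.757 in CD4 and -0.273 to 0.327 in CD8, the CD8 TRBD1 difference from 1.87 to 2.95, and the gut to liver difference of the TRBJ2 cluster of TRBV1 from -10.2 to -6.84 in CD4 and -8.92 to -5.02 in CD8. CD4 TRBJ1-4 ran from -1.32 to -0.843 and passed without STAT3koPD-1ko liver replicate 2 or gut replicate 2.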
